A study of Mus musculus with 35 samples.

Results

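Acetylation of histone H3 at lysine 27 (H3K27Ac) was compared between the newborn (P0) and the mature (P21) mouse retina. The comparison used the 4 H3K27Ac ChIP-Seq libraries of wild-type retinae at these stages, 2 per stage, out of 27 libraries with a peak list and 35 samples in the series. The antibody, labelled H3K27Ac-AB2, was the same in the 4 libraries, and no allele or agent was added in either group. Whole retinae were used, so a change in how many cells carry a mark and a change in the mark within each cell cannot be told apart. The labels do not say whether replicates came from separate animals, and tests over them may measure technical spread only. The other wild-type libraries (H3K27Ac at P12 and P14, H3K4me3 and H3K27me3) and 1 library of FLAG-tagged Brg1 at P0, from Brg1-FLAG mice, served as independent readouts. At the end, 2 H3K27Ac libraries of Brg1-deficient retinae at P12 were set beside the wild-type P12 library.

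H3K27Ac is laid down by acetyltransferases at active promoters and enhancers, and the peaks far from promoters are commonly read as active enhancers. H3K4me3 marks promoters. H3K27me3 is placed by Polycomb repressive complex 2 on silent developmental genes, and the same lysine cannot be acetylated and methylated at once. Brg1 is the ATPase of the SWI/SNF (BAF) remodeling complex, which opens chromatin. At P0 the mouse retina still holds dividing progenitor cells beside newborn neurons, and by P21 it is postmitotic and made up largely of rod photoreceptors.

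The peaks of the 4 lists that overlapped by at least 1 bp were merged into 54774 regions on the mm9 build. The height of a region in a library was the largest fold enrichment over background among its peaks there, and 0 where the library had no peak. A region was called gained when both P21 libraries and neither P0 library had a peak, and lost when both P0 libraries and neither P21 library had one. Regions are named by position, since no mm9 gene annotation was used here, and for the same reason the tissue was not checked against marker genes.

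The 4 lists differed in size, and P21 replicate 1 stood apart from the rest. The P0 lists held 17588 and 29304 peaks in replicates 1 and 2, and the P21 lists held 18718 and 45833. They covered 9.75 and 20.8 Mb at P0 and 16.8 and 34.4 Mb at P21. The number of reads behind each list is unknown. Of the 12068 regions with a peak in both P0 libraries and with H3K4me3 in all P0 and P21 libraries of that mark, P21 replicate 2 had an H3K27Ac peak in 94.3% and P21 replicate 1 in 55.2%. Where both P21 libraries had a peak, the median height at such H3K4me3-marked regions was 5.61 in replicate 1 and 9.87 in replicate 2 (7555 regions). At regions without H3K4me3 in any wild-type library it was 4.65 and 5.22 (4182 regions). The log2 heights correlated across shared regions with r = 0.70 between the P0 replicates (14157 regions) and r = 0.43 between the P21 replicates (14287 regions), regions not being independent. The counts, shares, lengths and tests that this library bears on most are therefore also given without it.

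More regions were gained than lost when all deposited peaks were used. There were 6298 gained regions (11.5% of 54774) and 2051 lost regions (3.74%), against 6884 regions with a peak in all 4 libraries. A further 19592 regions had a peak in P21 replicate 2 only, and 9629 in P0 replicate 2 only, these being the longest lists of their stages. The 5216 regions found in every library but P21 replicate 1 outnumbered the lost regions.

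The excess of gains was much smaller when the lists were made equal in length. From each list the top 17588 peaks by −log10 q-value were kept, which was the whole list of P0 replicate 1 and raised the −log10 q-value of the weakest peak kept in P21 replicate 2 to 9.02. These peaks merged into 27810 regions, of which 3651 were gained (13.1%) and 3204 lost (11.5%). Of the 3204 regions lost in this reckoning, 48.8% overlapped a weaker P21 peak of the full lists, whereas 13.6% of the 3651 gained regions overlapped a weaker P0 peak. The counts also turned on single libraries. Without P21 replicate 1, 25890 regions were gained and 2057 lost, and without P21 replicate 2, 7401 were gained and 7267 lost. Without P0 replicate 1, 6324 were gained and 11680 lost.

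**Figure D1:**
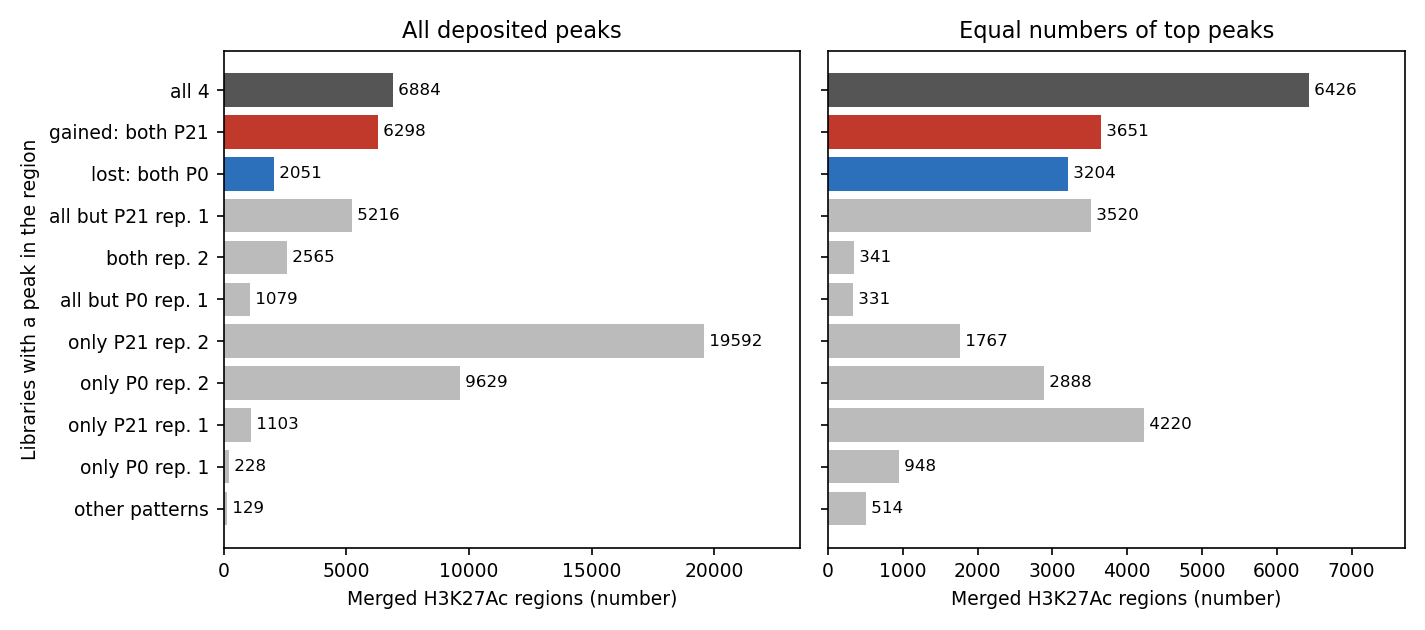
Number of merged H3K27Ac regions (horizontal axis) by the libraries that had a peak in them, for all deposited peaks (left) and for the 17588 peaks of highest −log10 q-value in each library (right). With all peaks, 6298 regions were gained (red) and 2051 lost (blue); with equal numbers the bars were close in length, at 3651 and 3204.

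Gained regions were longer than lost regions when all peaks were used. The median length was 1024 bp for gained regions, 743 bp for lost regions, 1501 bp for regions in all 4 libraries and 494 bp for all merged regions. The 591 gained regions longer than 3000 bp were 9.38% of their class, against 28 lost regions (1.37%) and 2.89% of all regions. The longest gained region spanned 14723 bp and the longest lost region 5657 bp. The length of the gained class rested on P21 replicate 1. Without that library the 25890 gained regions had a median span of 366 bp, against 743 bp for lost and 485 bp for all regions. Without P21 replicate 2 the gained median was 585 bp and the lost median 785 bp, without P0 replicate 1 they were 1024 and 357 bp, and without P0 replicate 2 they were 1058 and 299 bp. The single lists, before merging, differed in their widest peaks. Peaks over 3000 bp numbered 17 and 175 at P0 and 778 and 937 at P21, and 17, 175, 778 and 933 among equal numbers of top peaks, so the stages did not overlap. An exact two-sided permutation test of 2 libraries against 2 cannot give a p below 0.333. The median heights of gained regions were 5.03 and 5.69 in P21 replicates 1 and 2, and those of lost regions 4.94 and 5.83 in P0 replicates 1 and 2, before scaling between libraries.

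The stages in between, which did not enter the classes, were then read at the same regions. At P12, 87.7% of gained regions already had an H3K27Ac peak (1 library), against 56.7% of all regions, and 21.7% of lost regions still had one. Without P21 replicate 1 the share at gained regions was 55.8%, no higher than the 56.9% of all regions then merged. It was between 81.4% and 89.3% with another library left out, and 96.6% with equal numbers of top peaks. The share at lost regions also depended on how they were chosen. It was 50.6% with equal numbers of top peaks, against 78.1% of the regions merged from those, and 71.9% without P21 replicate 2, against 62.9% of all regions then merged. At P14 the gained regions had a peak in 47.5% of cases in replicate 1 and in 91.3% in replicate 2. The lost regions had one in 1.02% and 39.8%, and all merged regions in 24.3% and 64.3%. Both P14 libraries had a peak at 47.4% of gained and 24.2% of all regions. Without P21 replicate 1 this was reversed, at 14.2% of gained and 24.5% of all regions then merged. With another library left out, gained regions had between 41.5% and 51.4%, and all regions between 24.3% and 35.7%. The P14 lists differed as the P21 lists did, with 17433 and 50005 peaks. Of the gained regions, 2960 (47.0%) had a peak in each of the 3 P12 and P14 libraries and 334 (5.30%) in none. Of the lost regions, 16 (0.78%) had a peak in each and 1153 (56.2%) in none. Among regions in P21 replicate 2 only, 35.1% had a peak in none of the 3, compared with 78.9% of those in P0 replicate 2 only.

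**Figure D2:**
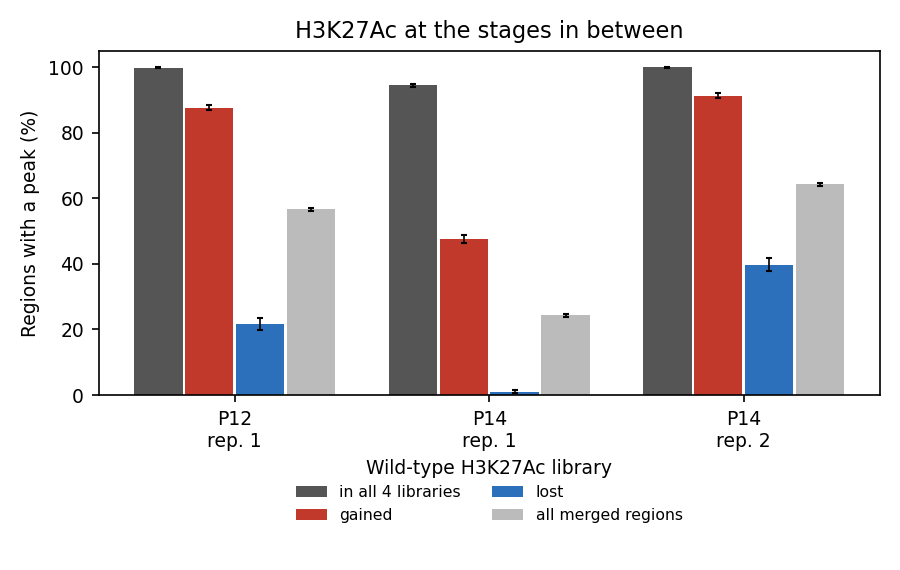
Percent of regions with an H3K27Ac peak (vertical axis) in the wild-type P12 library and the 2 P14 libraries, for regions in all 4 P0 and P21 libraries, gained, lost and all merged regions. Error bars are Wilson 95% intervals, which cover counting error only. Gained regions sat between 47.5% and 91.3%, above all merged regions in each library, and lost regions between 1.02% and 39.8%, below them. Gained regions chosen without P21 replicate 1 were not above all merged regions, either at P12 or in both P14 libraries.

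Fewer gained regions than regions in all 4 libraries carried H3K4me3. H3K4me3 was present in both P0 libraries at 6.72% of gained regions and in both P21 libraries at 18.8%, whereas 97.1% and 97.6% of the regions in all 4 libraries had it. Over all merged regions these shares were 35.5% and 34.4%. The 2 P21 libraries of H3K4me3 disagreed on the gained regions, with a peak in 37.5% of them in replicate 1 and 18.8% in replicate 2. No wild-type library of any stage had an H3K4me3 peak in 3875 gained regions, which were 61.5% of the class, against 54.8% of all merged regions. With equal numbers of top peaks 1565 of 3651 gained regions (42.9%) had none, so most then overlapped an H3K4me3 peak, and the share over all 27810 regions was 32.3%. Without P21 replicate 1 it was 75.4% of gained and 54.1% of all regions. The 3875 regions were 850 bp long at the median and lay a median of 7654 bp from the nearest H3K4me3 peak. The 1182 gained regions with H3K4me3 in both P21 libraries were longer, at a median of 1480 bp, and 24.2% of them exceeded 3000 bp. H3K4me3 itself appeared with H3K27Ac at 11.5% of gained regions, being absent from both P0 libraries and present in both P21 libraries. It disappeared in this way from 0.11%. Over all merged regions it appeared at 2.44% and disappeared from 1.71%.

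With all deposited peaks, lost regions divided between sites with H3K4me3, most of which kept it, and sites without it at any stage. H3K4me3 was present in both P0 libraries at 47.2% of lost regions (967) and in both P21 libraries at 33.4%. Of these 967, 70.5% still had H3K4me3 in both P21 libraries, where H3K27Ac had no peak. H3K4me3 was lost from both libraries at 6.73% of lost regions and was new at 0.10%, against 1.71% and 2.44% of all merged regions. The 963 lost regions without H3K4me3 in any wild-type library lay far from it, 70.5% of them more than 10 kb away. The share of lost regions without it, 47.0% here, depended on the lists used. It was 68.7% without P0 replicate 1, against 54.8% of all regions then merged. Without P21 replicate 2 it was 16.7%, against 40.8%, and with equal numbers of top peaks 28.2%, against 32.3%.

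Brg1 occupancy at P0 separated the classes. A Brg1-FLAG peak covered 86.9% of lost regions, 93.4% of the regions in all 4 libraries and 46.6% of all merged regions, but 19.6% of gained regions. Among lost regions without H3K4me3 the share was 91.7%, and among gained regions without H3K4me3 it was 12.9%. Both classes that had H3K27Ac peaks in both P0 libraries thus had a high share with Brg1, and Brg1 was measured at no later stage. The gained regions that did carry Brg1 at P0 (1237) were longer than those that did not (5061), with median lengths of 1335 and 964 bp. Of these, 34.0% and 15.0% respectively had H3K4me3 in both P21 libraries.

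H3K27me3 became more frequent at lost regions and less frequent at gained regions. Domains of H3K27me3 were present in both P0 libraries at 15.7% of lost regions and in both P21 libraries at 31.3%. The 4 libraries gave 16.3% and 19.8% at P0, and 32.7% and 35.4% at P21. At gained regions the shares fell from 5.08% at P0 to 0.37% at P21. Over all merged regions they were 9.42% and 9.27%, while the domains covered 96.6 and 114 Mb at P0 and 142 and 152 Mb at P21. Thus the P0 and P21 libraries did not overlap in either class, and the classes moved apart while the share over all regions stayed nearly level. H3K27me3 appeared at 12.3% of lost regions, in neither P0 library and both P21 libraries, against 2.80% of all merged regions. A rise was not particular to the lost class. Regions in every library but P21 replicate 1 went from 17.1% to 23.6%, and regions in P0 replicate 2 only from 9.14% to 17.3%. H3K27me3 appeared in this way at 7.07% and 7.03% of them. It was in both P0 libraries and neither P21 library at 4.57% of gained regions. That was near the 3.27% of all merged regions and the 4.75% of regions with H3K27Ac in all 4 libraries. The latter class also fell, from 6.55% with H3K27me3 in both P0 libraries to 2.27% in both P21 libraries.

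H3K27me3 rose at lost regions with and without H3K4me3, by more percentage points at those with it and by a larger ratio at those without. Of the 967 lost regions with H3K4me3 in both P0 libraries, 32.4% had H3K27me3 in both P0 libraries and 56.2% in both P21 libraries. Of the 963 without H3K4me3, 0.83% and 8.72% had it. The 323 lost regions that already carried H3K27me3 at P0 nearly all kept it, since 97.8% had it in both P21 libraries, and 83.9% had H3K4me3 at P21 as well. By contrast, of the 320 gained regions with H3K27me3 in both P0 libraries, 5.63% kept it in both P21 libraries, and 51.2% had H3K4me3 there.

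**Figure D3:**
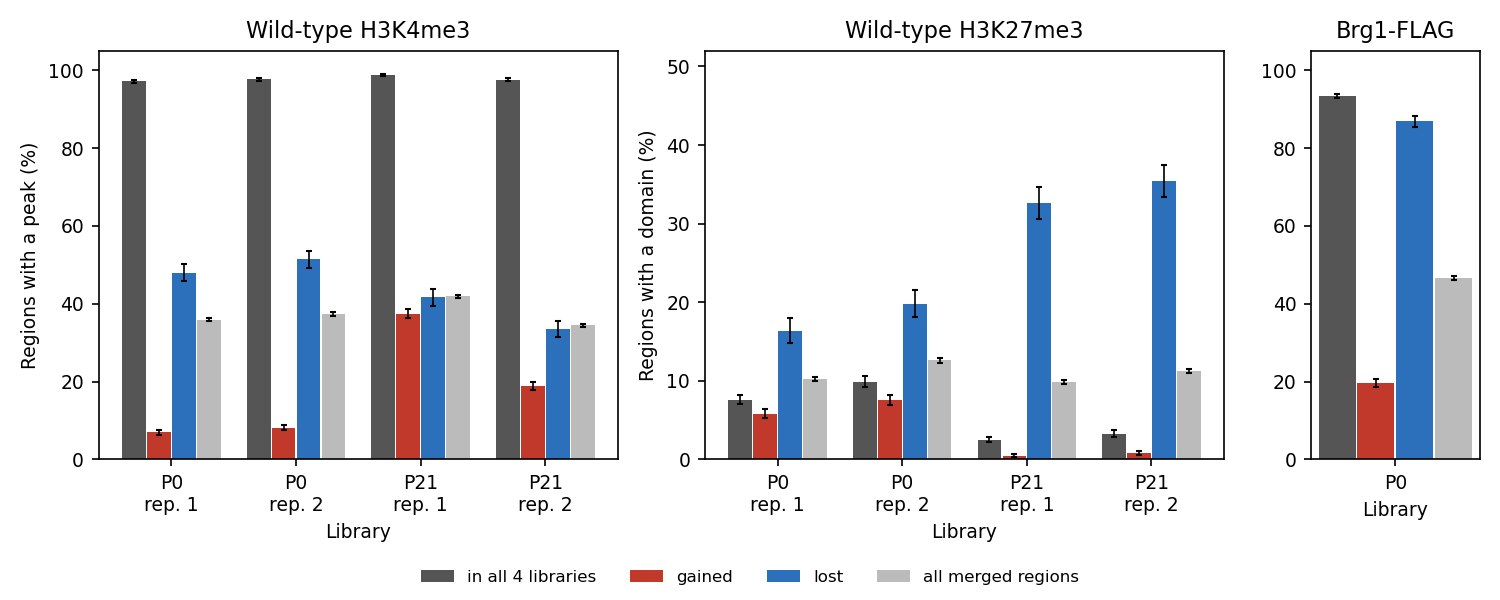
Percent of regions (vertical axes; the H3K27me3 axis ends at 52%) that overlapped an H3K4me3 peak, an H3K27me3 domain or a Brg1-FLAG peak in each library, by class of H3K27Ac region. Error bars are Wilson 95% intervals for counting error. Lost regions rose from 16.3% and 19.8% with H3K27me3 at P0 to 32.7% and 35.4% at P21, and gained regions had the lowest share with Brg1, 19.6%.

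Without P21 replicate 1 the lost class hardly changed, from 2051 to 2057 regions, so its shares could not move much. The 2057 regions then lost had Brg1 in 86.9%, H3K4me3 at P0 in 47.2%, and H3K27me3 in 15.7% at P0 and 31.3% at P21. The gained class changed more. Its 25890 regions without P21 replicate 1 had an H3K27Ac peak at P12 in 55.8%, against 56.9% of the 53671 regions merged from the 3 remaining lists. They had Brg1 in 17.2%, H3K4me3 at P21 in 13.1%, and H3K27me3 in 6.96% at P0 and 2.70% at P21. Without P21 replicate 2, 80.5% of the 7267 lost regions had H3K4me3 at P0, against 49.5% of all regions then merged. H3K27me3 went from 16.7% to 25.7% at these lost regions and from 10.5% to 12.5% over all. With equal numbers of top peaks, Brg1 covered 87.3% of lost and 33.4% of gained regions, against 64.4% of all regions then merged. H3K27me3 went from 20.1% to 36.3% at lost and from 7.23% to 0.55% at gained regions, and from 10.7% to 10.9% over all. The fall of H3K27me3 at gained regions and its rise at lost regions kept their direction in each of these settings. Without P0 replicate 1, the 11680 lost regions went from 10.3% to 19.8%, and without P0 replicate 2, the 2279 lost regions went from 16.3% to 31.1%. The other shares of the lost class moved more without P0 replicate 1. Brg1 then covered 63.05% of the 11680 lost regions, against 46.6% of all regions then merged. H3K4me3 at P0 was in 26.3% of them, below the 35.5% of all.

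Heights were then tested region by region. The 24222 regions with a peak in at least 2 of the 4 libraries were compared with limma on the log2 of scaled height plus 2.67, which understates the change of low regions. At a Benjamini-Hochberg adjusted p under 0.05, 5889 regions were higher at P21 (24.3% of those tested) and 2010 lower (8.3%). Of the higher regions, 5737 (97.4%) were gained regions, 96 had a peak in all 4 libraries and 56 had another pattern. Of the lower regions, 1960 were lost regions, 36 had a peak in all 4 libraries and 14 had another pattern. The calls thus mostly restated presence and absence, because a missing peak enters as the same low value in both libraries and has no spread. P0 and P21 heights did not overlap in any called region, nor did they in 37.3% (higher) and 25.7% (lower) of the regions tested.

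The balance of these calls depended on how the lists were matched. With quantile normalization 3711 regions were higher (15.3%) and 3171 lower (13.1%), and with equal numbers of top peaks 3703 (20.6%) and 3262 (18.1%) of 17987. The share of calls that were higher was 74.6% at first, 53.9% with quantile normalization and 53.2% with equal numbers. With P0 replicate 1 or P0 replicate 2 left out, limma called 0 regions. At an unadjusted p under 0.05 there were then 3251 higher and 2248 lower without replicate 1, and 3523 and 2246 without replicate 2. Without P21 replicate 1 it called 6642 higher and 1013 lower.

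The regions with the largest rises had no peak at P0, and by P21 they stood above the median height of the regions in all 4 libraries, which was 5.68 and 10.1 in the P21 replicates. They are ordered by log2 difference, with an absent peak at the pseudocount. No fold change or p is given for these regions, since a height of 0 in both libraries has no spread and the fold then depends on the pseudocount. The first of the 10 was chr9:62904730-62909070, which had heights of 0 and 0 at P0 and 28.8 and 23.5 at P21. The region was already at 17.9 at P12 and at 21.4 and 25.8 at P14. Its H3K4me3 rose with it, from 4.15 and 5.45 at P0 to 26.9 and 17.9 at P21.

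The region chr2:60381985-60393958 was 11974 bp long and was covered by 2 and 7 separate peaks at P21, with heights of 24.9 and 22.3 and none at P0. H3K27me3 was present there in 1 of the 2 P0 libraries and in neither at P21. At chr11:120312901-120316144 the P21 heights were 30.2 and 17.6, again from 0 and 0. H3K4me3 there was absent from both P0 libraries and reached 57.4 and 22.3 at P21. The next were chr1:89700216-89702696 at 24.1 and 21.8, and chr16:35409778-35417615 at 29.0 and 15.5. In each of these 5 regions H3K4me3 was higher in both P21 libraries than in both P0 libraries.

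The sixth and the ninth departed from this pattern in their H3K4me3. The region chr6:115839582-115842961, at 0 and 0 and then 20.6 and 22.4, had H3K4me3 in P21 replicate 1 only, at 7.64, and no Brg1. The region chr7:116089522-116097432, at 0 and 0 and then 21.02 and 15.5, already had H3K4me3 of 36.9 and 20.3 at P0. Both H3K27me3 libraries covered it at P0 and neither did at P21. The other 3, chr19:8956620-8961436, chr19:4137840-4141876 and chr14:64609308-64614966, reached between 15.8 and 21.5 at P21. All 10 had a peak in the P12 library and in both P14 libraries, with heights from 11.8 to 28.5.

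The 10 largest falls were at regions without a peak in either P21 library, and 9 of them had strong H3K4me3 at P0. The first, in the same order, was chr3:36469735-36471040, with heights of 15.8 and 23.0 at P0 and 0 and 0 at P21. It had kept a height of 8.08 at P12 and of 10.6 in P14 replicate 2, with no peak in P14 replicate 1. Its H3K4me3 was 58.9 and 77.0 at P0 and still 46.0 and 14.9 at P21.

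H3K27me3 was found in all P0 and P21 libraries at 4 of the 10 falls. These were chr9:91275947-91276976 (15.5 and 17.5 at P0), chr3:34548926-34550608 (13.5 and 17.2), chr7:56136596-56138110 (16.8 and 13.7) and chr5:35731150-35733029 (10.6 and 19.2). At chr4:117806971-117807965, at 12.4 and 21.1, it was in neither P0 library and in both P21 libraries. The region chr1:135387583-135390924 differed from the rest, with 15.3 and 16.0 at P0, weak H3K4me3 of 4.76 and 8.75, and a Brg1 height of 19.97. It had no H3K27me3 at either stage. The last 3 were chr17:56441822-56444504, chr2:129122305-129122950 and chr3:27052077-27052783, also without H3K27me3. Of the 10 falls, 3 still had a peak at P12 and 7 in P14 replicate 2, and none had one in P14 replicate 1.

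**Figure D4:**
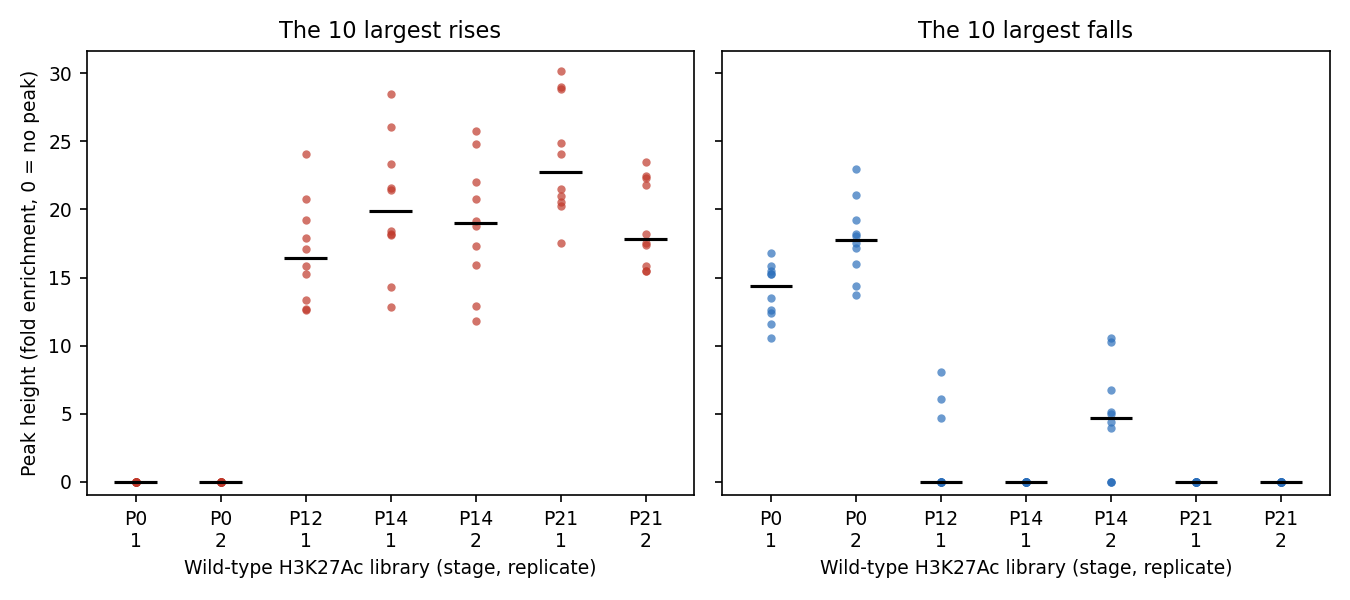
Height (fold enrichment, 0 where no peak was called) of the 10 regions with the largest rise (left) and the 10 with the largest fall (right) in each wild-type H3K27Ac library, by stage and replicate. Points are regions and bars are medians. The rises had no peak at P0 and 11.8 or more from P12 on, and the falls had none at P21, with 10.6 at P12 or P14 at most.

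Regions with a peak at both stages allowed a comparison that did not rest on absent peaks. The 6884 regions with a peak in all 4 libraries were compared by themselves with limma, and 223 were higher at P21 (3.24%) and 68 lower (0.988%). The standard error was estimated as the same for every region, at 0.33 on the log2 scale. The median log2 difference was 1.22 among the higher, −1.11 among the lower and 0.01 over all 6884. Without scaling of the libraries, which moved that median to −0.29, 0 regions were called, with 143 higher and 929 lower at an unadjusted p under 0.05. Leaving out a library gave 4 higher and 1 lower (P0 replicate 1), 13 and 1 (P0 replicate 2), 39 and 17 (P21 replicate 1) and 434 and 133 (P21 replicate 2).

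The 223 higher regions were weak and narrow at P0 and broad at P21. The higher and lower regions were chosen by their P0 and P21 heights, so the direction of those heights follows from the choice. The lengths come from the same peaks and are not an independent readout. The median heights of the 223 regions were 4.77 and 5.53 at P0 and 12.03 and 13.7 at P21. Their peaks covered a median of 441 and 940 bp at P0 and 2704 and 3098 bp at P21, while all 6884 went from 720 and 1094 bp to 750.5 and 1392 bp. The 68 lower regions had median heights of 19.6 and 19.7 at P0 and 3.901 and 7.82 at P21. They covered 859 and 1292 bp at P0 and 518 and 1316 bp at P21, so their width did not follow their height in replicate 2. H3K4me3 was present in both P21 libraries at 96.4% of the higher and 100% of the lower regions, close to the 97.6% of all 6884. In both P0 libraries it was present at 86.1% of the higher and 100% of the lower regions, against 97.1% of all 6884. At P14 the median heights in replicates 1 and 2 were 13.0 and 18.2 at the higher regions, 7.27 and 18.9 at the lower regions and 8.25 and 17.1 over all 6884. The higher and lower regions thus stood apart in P14 replicate 1 and not in P14 replicate 2.

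Part of the higher regions carried H3K27me3 at P0 and had lost it by P21. It was present in both P0 libraries at 74 of the 223 higher regions (33.2%) and in both P21 libraries at 1 (0.45%), against 6.55% and 2.27% of all 6884. The 4 libraries gave 33.6% and 39.9% at P0 and 0.45% and 2.69% at P21. At P14, 1 of the 223 had it in both libraries. Of the 223, 68 (30.5%) had it in both P0 libraries and neither P21 library, and 133 (59.6%) had it in none of these 4 libraries. Of the 68 lower regions, 3 had H3K27me3 in both P0 libraries and 6 in both P21 libraries. The share with H3K27me3 at P0 among the higher regions was 32.7% under quantile normalization (150 regions), 32.4% with equal numbers of top peaks (185 regions) and 43.6% without P21 replicate 1 (17 of 39). It was lower without P21 replicate 2, at 21.2% (92 of 434).

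Regions grouped by their H3K27me3, which no fit used, differed in their H3K27Ac change. Among the 6884, 327 regions had H3K27me3 in both P0 libraries and neither P21 library. Of these, 68 were higher (20.8%) and 0 lower, and their median log2 difference in H3K27Ac was 0.55. The 87 regions with H3K27me3 in all 4 of its libraries had a median of −0.01, with 1 higher and 3 lower. The 53 regions with H3K27me3 new at P21 had a median of −0.46, with 0 higher and 3 lower. The 6048 regions without H3K27me3 at P0 or P21 had a median of −0.01, with 133 higher (2.20%) and 61 lower (1.01%). The percentages called moved with the libraries used. Where H3K27me3 was in both P0 and neither P21 library, 4.59% were higher without P21 replicate 1 (0.57% of all 6884) and 25.7% without P21 replicate 2 (6.30% of all). The median log2 difference of these 327 regions was 0.51 and 0.59 then, and 0.40 and 0.54 without P0 replicates 1 and 2. For the 53 regions with H3K27me3 new at P21 the median was between −0.54 and −0.40 with any 1 library left out.

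Among the 24222 regions tested first, where most calls restate presence, the strata were also apart. All 24222 had 24.3% higher and 8.3% lower, and the 19189 without H3K27me3 at P0 or P21 had 27.8% higher and 6.56% lower, with a median log2 difference of 0.12. Where H3K27me3 was present in both P0 libraries and neither P21 library (955 regions), 32.7% were higher and 0.52% lower, with a median log2 difference of 0.85. Where it was in all 4 (1593 regions), 1.07% were higher and 18.8% lower, with a median of −0.68. Where it was new at P21 (747 regions), 0.27% were higher and 33.7% lower, with a median of −1.24. The median over all 24222 was 0.04. Without P21 replicate 1 the medians were 0.95 (955 regions), −0.04 (1593 regions) and −0.76 (747 regions), against 0.38 over all 24222. Without P21 replicate 2 they were 0.94, −1.23 and −1.57, against −0.24 over all. With P0 replicate 1 left out they were 0.66, −0.82 and −1.31 (all, −0.24), and with P0 replicate 2 left out 0.90, −0.62 and −1.16 (all, 0.29).

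**Figure D5:**
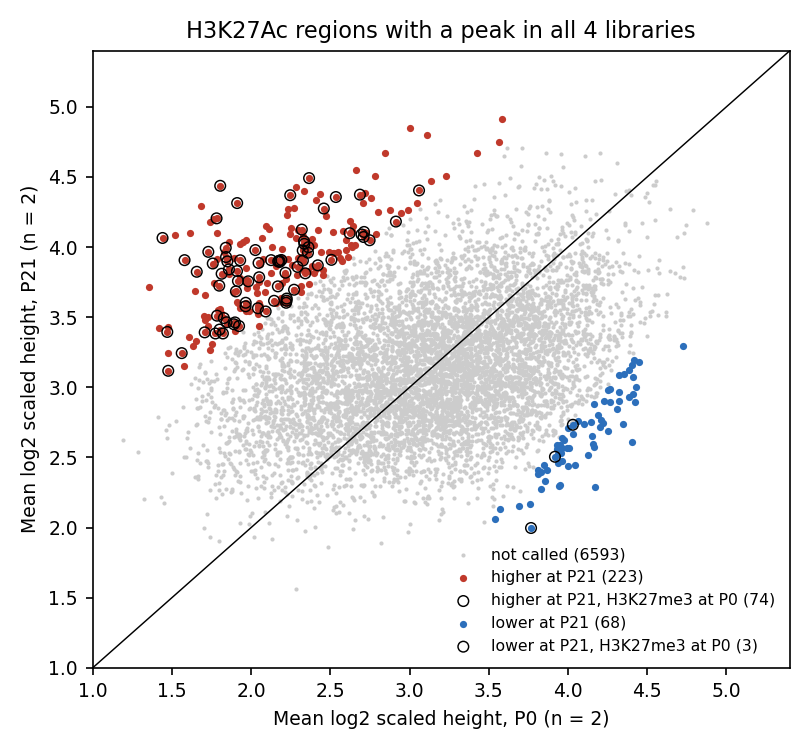
Mean log2 scaled H3K27Ac height at P0 (horizontal axis) and P21 (vertical axis), n = 2 libraries each, for the 6884 regions with a peak in all 4 libraries; the line marks equal height. The 223 regions higher at P21 are red and the 68 lower are blue, and open circles mark those with H3K27me3 in both P0 libraries, 74 of the higher and 3 of the lower.

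The 5 largest rises and 5 largest falls in this comparison, chosen after their values were seen, varied in their H3K27me3. The SE printed below is the one shared by all 6884 regions. It and the adjusted p therefore do not measure the spread between replicates at the region named. Of the rises, 1 had it in both P0 libraries and neither P21 library, 2 in 1 P0 library and neither P21 library, 1 in all 4 and 1 in none. Of the falls, 1 had it new in both P21 libraries, 1 in all 4 and 3 in none. The region chr14:56137331-56146151 went from 3.34 and 4.93 at P0 to 18.7 and 18.6 at P21, a log2 difference of 1.98 ± 0.33 (SE, n = 2 per stage; limma adjusted p = 1.56e-05). H3K27me3 covered it in both P0 libraries and in neither P21 library, and its H3K4me3 went from 14.9 and 18.6 to 77.8 and 33.4. The region chr9:29217870-29221302 went from 2.47 and 5.64 to 19.7 and 14.4, with H3K27me3 in 1 P0 library and no P21 library. The one rise with H3K27me3 in all of these libraries was chr5:140382194-140389527, which went from 3.52 and 2.83 to 13.4 and 15.5. The largest fall was at chr15:27953831-27956353, from 13.7 and 31.9 to 2.999 and 5.87, a log2 difference of −1.46 ± 0.33 (SE, n = 2 per stage; limma adjusted p = 0.00167). This was the fall with H3K27me3 new at P21. The fall with H3K27me3 in all 4 was at chr15:85500155-85502616, from 18.9 and 13.2 to 2.95 and 3.99. Those without it were at chr12:60167870-60168794, chr8:86627927-86628821 and chr1:183771228-183773321, with P0 heights between 19.2 and 31.6 and P21 heights between 3.28 and 8.43.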

How the data were processed

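Peak lists of wild-type H3K27Ac libraries at P0 and P21 (2 each) were compared, with the lists of the other marks as independent readouts. The authors called peaks in each library separately. The submitters' processing notes name CASAVA, BWA 0.5.9-r26, Picard 1.65, SAMtools, R 2.14.0, MACS2 2.0.9, bedtools 2.17.0, SICER 1.1 and the mm9 build. Their settings and the use of input libraries are not given in the sources used here. For each peak of H3K27Ac, H3K4me3 and Brg1 the authors deposited the fold enrichment over background and the −log10 q-value. The score that the authors deposited with each peak was not used. The fold enrichment depends on the depth and quality of its own library. Of the H3K27me3 lists, positions only were used.

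Regions and heights were built in pandas 2.3.3 and numpy 2.4.6 under Python 3.11.15. Heights were scaled so that regions found in all 4 libraries had the same median in each (factors 0.90 and 0.82 at P0, 1.55 and 0.87 at P21) and tested on log2(height + 2.67) by moderated linear models (limma 3.58.1, R 4.3.3), the pseudocount being the 5th percentile of heights. In simulated heights for 24222 regions, 200 were moved by 2 log2 units, and 86 of these were recovered with 3 false calls. With a peak required in all 4 libraries (6884 regions) 199 were recovered with 14 false calls. The simulated noise had the same spread in every region, and no peak was absent. The result for 24222 regions therefore cannot show the error among calls that rest on absent peaks. Shares carry Wilson 95% intervals in the figures. Figures were drawn with matplotlib 3.10.9.

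The regions named were the 10 largest rises and the 10 largest falls among calls whose stages did not overlap, with the 5 highest gained and the 5 highest lost, which were among these 20. The comparison, the lists and the tests were chosen with earlier results of these data known. The planned results for gene promoters and sequence motifs were not computed, because no mm9 annotation or genome was used here. The comparisons restricted to regions in all 4 libraries under other settings, the strata by H3K27me3 and the class shares, lengths and runs with a library left out were added after the data were seen.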

Additional observations from a re-analysis of the deposited data

How the results depend on the processing

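The 20 regions named as the largest rises and falls have no peak in either library of 1 stage, so their direction is fixed and says nothing of stability. Their calls were lost with no filter and with either P0 replicate left out, and for some with a P21 replicate left out. In the height tests the numbers higher and lower were 3711 and 3171 under quantile normalization, 3703 and 3262 with equal numbers of top peaks, and 223 and 68 with a peak required in all 4 libraries. With no filter they were 0 and 0, with 6817 higher and 2394 lower at an unadjusted p under 0.05. Leaving out 1 library gave between 0 and 6658 higher and between 0 and 2748 lower. The cause of these differences was not tested. With a peak required in all 4 libraries, 3.24% of regions were higher and 0.988% lower, against 24.3% and 8.3% in the first test. That filter leaves out the gained and lost regions, which were 97.4% of the first higher calls and 97.5% of the lower.

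P0 and P21 libraries share replicate numbers 1 and 2. The replicate differences of the stages correlated across regions with r = 0.17 over the tested regions and r = −0.02 over regions in all 4 libraries, and replicate 1 had the shorter list at both stages. The labels do not say what a number marks, and 2 pairs cannot show whether the numbers pair the libraries, so the block was not used in the main test. With the replicate number as a block, limma gave 6525 higher (26.9%) and 2062 lower (8.51%), with a peak required in all 4 libraries 219 and 63, and with equal numbers of top peaks 3720 and 2182.

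Among regions in all 4 libraries, the calls became 0 higher and 0 lower without scaling, and leaving out 1 library gave between 4 and 434 higher and between 1 and 133 lower.

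Gained and lost regions numbered 3651 and 3204 with equal numbers of top peaks, and 1768 and 1716 with the 10000 strongest peaks of each list. Leaving out 1 library gave between 6324 and 25890 gained and between 2057 and 11680 lost. Counting a mark in either library instead of both, gained regions had H3K27Ac at P14 in 91.4%, H3K4me3 in 8.30% at P0 and 37.5% at P21, and H3K27me3 in 8.26% at P0 and 0.86% at P21. Lost regions had 39.8%, 52.2%, 41.7%, 20.3% and 36.7%. With equal numbers of top peaks, gained regions had H3K4me3 in 11.5% and H3K27me3 in 7.23% at P0. Lost regions had H3K4me3 in 67.0% and 56.4%, and H3K27me3 in 20.1% and 36.3%, at P0 and P21. Over all regions then merged these shares were 56.3% and 56.7%, and 10.7% and 10.9%. The comparisons at gene promoters were not run, since no mm9 annotation was used here. Read depth is unknown for each library, and weak peaks of short lists may be missing.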

Other observations

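Many gained regions lay close to another gained region along the chromosome. With gained regions joined into runs where they lay at most 25000 bp apart, a distance chosen after the data were seen, 1595 of 6298 (25.3%) stood alone and 275 runs of 5 or more held 2064 (32.8%). Of the 2051 lost regions, 1216 (59.3%) stood alone and 21 runs of 5 or more held 118 (5.75%). The classes differ in number, which by itself changes the length of runs, and no test was made. Without P21 replicate 1, 68.3% of the 25890 gained regions lay in runs of 5 or more, and without P0 replicate 1, 32.5% of the 11680 lost regions did. The longest run held 27 gained regions at chr9:45224895-45391225, with 1 of them carrying H3K4me3 in both P21 libraries and 20 carrying H3K27Ac in all 3 P12 and P14 libraries. The next held 24 at chr12:87761804-87860456 and 20 at chr8:60055051-60137470. The run of 19 at chr7:116089522-116158831 began with the region named above among the 10 largest rises. The longest run of lost regions held 10, at chr2:166472046-166518589. All 10 had Brg1 at P0 and none had H3K4me3 in both P21 libraries.

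In Brg1-deficient retinae at P12, which had 2 libraries against 1 wild-type library, an H3K27Ac peak was present at 71.9% and 82.6% of gained regions, against 87.7% in the wild type. At lost regions it was present in 37.1% and 31.9%, against 21.7% in the wild type. Over all merged regions the shares were 52.4% and 56.0%, against 56.7% in the wild type. They moved with the libraries used. Without P21 replicate 1 gained regions had 42.7% and 51.3%, against 55.8%, and all regions 52.8% and 56.3%, against 56.9%. Without P21 replicate 2 lost regions had 79.6% and 77.3%, against 71.9%, and all regions 63.0% and 64.2%, against 62.9%. Both Brg1-deficient libraries but not the wild-type library had a peak at 10.6% of lost regions, 1.57% of gained regions and 3.78% of all merged regions. The lists held 40465 and 42887 peaks in the Brg1-deficient libraries and 47404 in the wild-type library. With 1 wild-type library the difference was not tested.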
